A study of Mus musculus with 6 samples.

Results

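Genes of MHC class I antigen presentation were followed by symbol in the deposited RNA sequencing table, and 8 of 10 were found: the heavy chains H2-K1 and H2-D1, the light chain B2m, the transporter subunits Tap1 and Tap2, the loading factor Tapbp, and the immunoproteasome subunits Psmb9 and Psmb10. The table holds 14526 genes in all, and the expression of Psmb8 and Nlrc5 was not analysed here. The cells were NMuMG, an epithelial line from mouse mammary gland that turns mesenchymal under TGF-beta. All 6 libraries came from cells at day 4 of TGF-beta, which was added with siRNA 16 hours after plating, both being given again on day 2. In 3 of them (siMnt) the siRNA was directed at the transcriptional repressor Mnt, and in the other 3 (siNTC) it was a non-targeting control. Every difference below is therefore between siRNAs in TGF-beta-treated cells of 1 line, and untreated cells were not part of it. In bulk RNA, a change in the number of cells that express a gene and a change in RNA per cell cannot be told apart.

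MHC class I molecules show short peptides from proteins made inside the cell to cytotoxic T cells, and most nucleated cells, epithelial cells included, carry them. Peptides are cut by the proteasome, in which Psmb8, Psmb9 and Psmb10 can replace the constitutive catalytic subunits Psmb5, Psmb6 and Psmb7. They are pumped into the endoplasmic reticulum by the Tap1-Tap2 transporter, and tapasin, encoded by Tapbp, holds the transporter to a heavy chain paired with B2m while peptide is loaded. Interferon-gamma raises many of these genes in part through Irf1, and Nlrc5 is a transactivator of class I promoters.

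The promoters of the genes that differed most, with that of B2m for contrast, are shown because classical class I promoters are known for a shared set of short elements. Sequences are from RefSeq (GRCm38.p6) and cover the 250 bases before the annotated start. The submitters' processing notes name build mm9, and the deposited table has no coordinates. Capitals mark, on either strand, GGGATTCCC (NF-kappaB-like), GAANNGAAA or GAAANNGAA (interferon response-like), TGACG (core of a cyclic AMP response element) and CCAAT. The H2-K1 window, 1 of 2 in the table for this gene, is chr17:34000348-34000597 on the minus strand, H2-D1 is chr17:35262844-35263093 on the plus strand, Tapbp is chr17:33919228-33919477 on the plus strand, and B2m is chr2:122147437-122147686 on the plus strand.
H2-K1: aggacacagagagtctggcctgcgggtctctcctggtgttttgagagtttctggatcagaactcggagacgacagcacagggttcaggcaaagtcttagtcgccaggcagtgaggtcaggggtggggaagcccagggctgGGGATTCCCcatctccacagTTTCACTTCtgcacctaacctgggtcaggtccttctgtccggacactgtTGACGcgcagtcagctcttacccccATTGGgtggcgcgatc
H2-D1: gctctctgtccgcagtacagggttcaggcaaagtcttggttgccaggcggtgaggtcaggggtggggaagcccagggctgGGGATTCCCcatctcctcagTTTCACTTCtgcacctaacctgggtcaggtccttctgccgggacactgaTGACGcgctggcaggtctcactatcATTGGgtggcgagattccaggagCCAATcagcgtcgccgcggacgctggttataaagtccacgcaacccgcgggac
Tapbp: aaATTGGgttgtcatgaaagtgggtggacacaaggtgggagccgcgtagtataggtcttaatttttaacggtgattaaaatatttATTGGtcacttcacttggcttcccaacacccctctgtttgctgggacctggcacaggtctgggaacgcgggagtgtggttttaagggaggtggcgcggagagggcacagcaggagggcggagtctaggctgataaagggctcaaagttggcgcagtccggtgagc
B2m: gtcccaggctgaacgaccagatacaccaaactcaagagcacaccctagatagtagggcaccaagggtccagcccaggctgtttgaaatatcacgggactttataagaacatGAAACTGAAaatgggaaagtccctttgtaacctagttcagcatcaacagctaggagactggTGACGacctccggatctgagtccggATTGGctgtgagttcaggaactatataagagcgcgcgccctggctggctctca

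H2-K1 and H2-D1 matched at 161 of 177 positions (91.0%) in their best local alignment, which had no gaps. Both held GGGATTCCC, a run present in 0.301% of the 32851 windows of this length in the RefSeq promoter table. The runs searched were picked from elements known in class I promoters. A match in the closely alike H2-K1 and H2-D1 windows was therefore likely beforehand and is not a separate finding. In both, the first base of GAANNGAAA, TGACG and CCAAT followed that of GGGATTCCC by 20, 69 and 94 bases. GAANNGAAA was present in 6.31% of all windows, TGACG in 17.8% and CCAAT in 33.8%. The B2m window lacked this exact GGGATTCCC and held GAAANNGAA (7.13% of all windows), TGACG and CCAAT. Of these letters the Tapbp window held CCAAT alone. GGGATTCCC was the only NF-kappaB-like run searched. Other forms of that site were not looked for in any window, so its absence from B2m and Tapbp covers this run alone. The E-box CACGTG, the kind of site that Mnt binds with its partner Max, was found in 1 of the 8 listed genes with a window, Psmb8 included, namely Psmb10, and in 6.02% of all windows. Tap2 and Nlrc5 had no window. Such matches describe the letters and do not show that a factor binds.

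Libraries held 22323050 to 42193292 reads assigned to genes. The siNTC replicates 1, 2 and 3 held 32418905, 24767602 and 42193292, and the siMnt replicates 25666005, 22323050 and 22336675. The deepest library was thus siNTC replicate 3. Values below are read counts divided by 1 size factor per library (normalised read counts), siNTC first and siMnt second, as mean ± SD over n = 3 libraries each. Along the first principal component, with 60.8% of the variance, the siMnt libraries lay at 29.4 to 35.5, siNTC replicates 1 and 2 at -43.0 and -52.3, and siNTC replicate 3 at -0.8, apart from its group. Mnt stood at 1316, 896 and 1596 in siNTC and 613, 557 and 749 in siMnt, a log2 difference of -0.96 ± 0.22 without overlap (adjusted p = 0.0546 by limma; 0.00442 with the block of replicate numbers). The epithelial keratins Krt8 and Krt18 were abundant in every library, Krt18 at 57047 ± 16918 and 58031 ± 3365, and the other epithelial markers are given with the marker lists below.

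H2-D1 rose 1.73-fold in siMnt and was the member that passed the test. B2m, Tap1, Tap2 and Psmb10 did not pass in any of the fits run. H2-K1 and Tapbp were 1.43-fold and 1.61-fold higher, without overlap between groups, and missed the threshold by limma while passing it with the replicate number as a block. Of the 7 members whose mean reached 10 normalised read counts, 1 was called higher and 0 lower at an adjusted p under 0.05 (limma, Benjamini-Hochberg over 12568 genes), against 2.56% and 1.37% of all tested genes. With the replicate number as a block 3 of 7 were called higher, against 9.33% of all genes, and without siNTC replicate 3 it was also 3 of 7, against 9.56%. The pairing of libraries behind the block was inferred from these data and is not stated in the labels. The median log2 fold change of the 7 was 0.16, and -0.01 over all tested genes. Within replicate numbers 1, 2 and 3 the members' median difference was 0.46, 0.28 and 0.10.

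**Figure D1:**
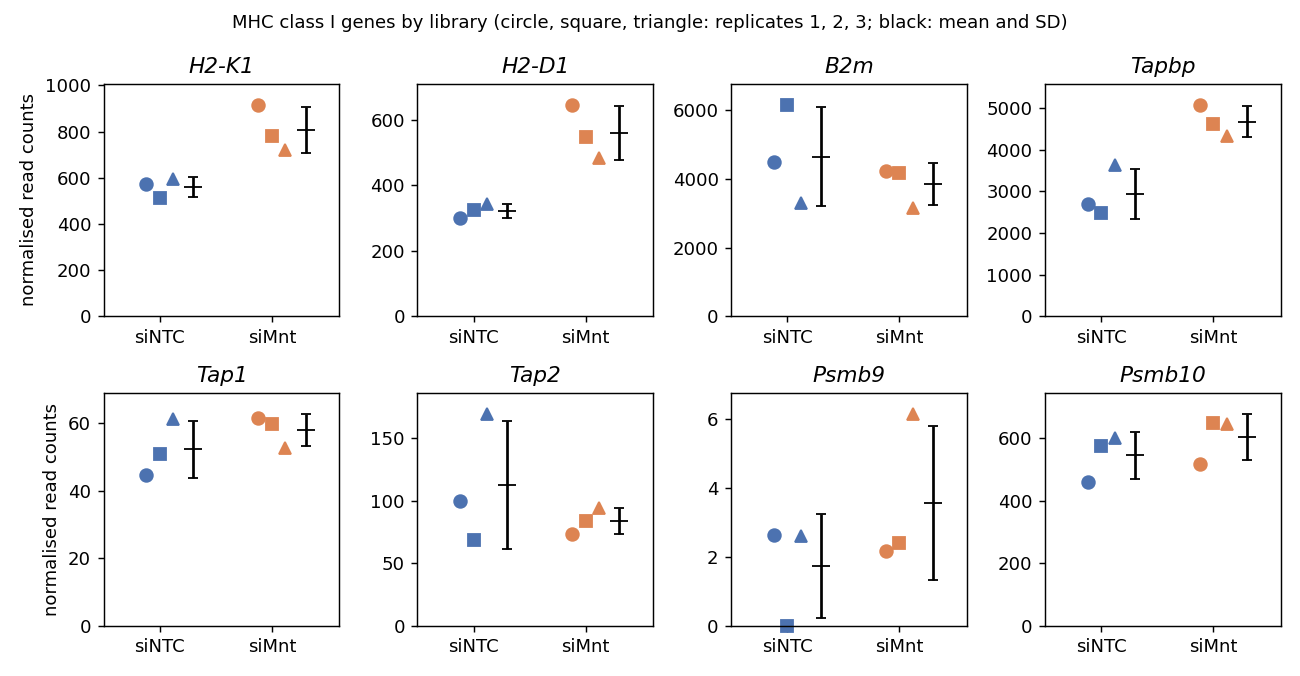
Normalised read counts (y axis, linear, from 0) of the 8 members in each library, siNTC in blue and siMnt in orange, with mean and SD over 3 libraries in black. For H2-K1, H2-D1 and Tapbp every siMnt library lies above every siNTC library, and for the other 5 genes the groups overlap.

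H2-D1 encodes a classical heavy chain, the transmembrane part of the molecule that binds peptide. It was at 300.5, 324.5 and 342.4 in siNTC replicates 1, 2 and 3 and at 646.6, 548.9 and 485.3 in siMnt replicates 1, 2 and 3. The siNTC libraries lay close together and the lowest siMnt library was well above them. The mean went from 322.5 ± 21.04 to 560.2 ± 81.3, a log2 fold change of 0.79 ± 0.16 (SE; adjusted p = 0.0392 by limma). On the recovered reads edgeR gave adjusted p = 0.0397 and DESeq2 0.000369. Within replicate numbers 1, 2 and 3 the log2 difference was 1.103, 0.76 and 0.50. The call needed nearly the full set of libraries: H2-D1 passed by limma without siNTC replicate 3 (adjusted p = 0.0176) but not without siNTC replicate 1 or 2 (0.151 and 0.0602) or siMnt replicate 1, 2 or 3 (0.2, 0.162 and 0.0719). Its fold change stayed between 0.68 and 0.89 on the log2 scale in those fits.

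H2-K1 encodes the other classical heavy chain found here. Its values were 573.0, 510.6 and 596.3 in siNTC and 915.8, 779.2 and 720.5 in siMnt. The lowest siMnt library was again above the highest siNTC library. The mean was 559.9 ± 44.3 and 805.2 ± 100.2, with a log2 difference of 0.52 ± 0.14 and a 95% interval of 0.19 to 0.85. The adjusted p by limma was 0.0806. Blocking on the replicate number gave 0.0318. edgeR gave adjusted p = 0.0771 and DESeq2 0.018, and limma without siNTC replicate 3 gave 0.0483. The smallest difference between same-numbered libraries was in number 3, at 0.27, against 0.68 and 0.61 in numbers 1 and 2.

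The heavy chain genes belong to a family of close copies, which bears on both values. Of all 50-base stretches of the longest coding transcript in GENCODE M21, 8.8% for H2-K1 and 14.3% for H2-D1 also occur in transcripts of other genes. How reads matching several genes were treated is not stated in these sources, so part of the reads of these genes is uncertain. For Tapbp that share was 2.0%, and for B2m, Psmb9 and Psmb10 it was 0%.

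Tapbp, which encodes the chaperone tapasin, was at 2694, 2487 and 3627 in siNTC and 5080, 4607 and 4342 in siMnt. siNTC replicate 3 was the highest control and siMnt replicate 3 the lowest of its group, and the groups did not overlap. The mean was 2936 ± 608 and 4676 ± 374, with a log2 difference of 0.69 ± 0.16 (adjusted p = 0.0544 by limma; 0.017 with the replicate number as a block). Without siNTC replicate 3 the log2 difference was 0.85 (adjusted p = 0.00454). Correcting for GC content and for length also moved Tapbp past the threshold (0.66, adjusted p = 0.0371), and with it 2 of the 7 members were called higher, against 4.85% of all genes. edgeR called 1 of 7, H2-D1 alone, against 2.29% of all genes (Tapbp adjusted p = 0.0604). DESeq2 called 3 of 7, against 6.71%. H2-K1, H2-D1 and Tapbp were also the 3 of 7 tested members whose siMnt libraries all lay above all siNTC libraries, which was so for 15.6% of all tested genes.

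B2m encodes beta-2-microglobulin, the invariant light chain shared by all class I heavy chains. It was the most abundant member, at 4489, 6166 and 3308 in siNTC and 4238, 4189 and 3147 in siMnt. The groups overlapped, and siNTC replicate 2 stood well above the other libraries. The log2 difference was -0.24 ± 0.23 with a 95% interval of -0.77 to 0.29 (adjusted p = 0.571 by limma), so that a fall and a modest rise both lie inside it. Without siNTC replicate 3 it was -0.46 (adjusted p = 0.137 by limma). Leaving out siNTC replicate 2 gave -0.01.

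Relative to B2m in the same library, the heavy chains stood higher in siMnt. This ratio was looked at after the values were seen and is given without a test. It is not corrected for transcript length and can be compared between libraries only. The H2-K1 value was 12.8%, 8.28% and 18.0% of the B2m value in siNTC and 21.6%, 18.6% and 22.9% in siMnt. For H2-D1 it was 6.69%, 5.26% and 10.3% in siNTC and 15.3%, 13.1% and 15.4% in siMnt. In both ratios siNTC replicate 3 was the control nearest to siMnt, and for H2-K1 it lay just under siMnt replicate 2.

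**Figure D2:**
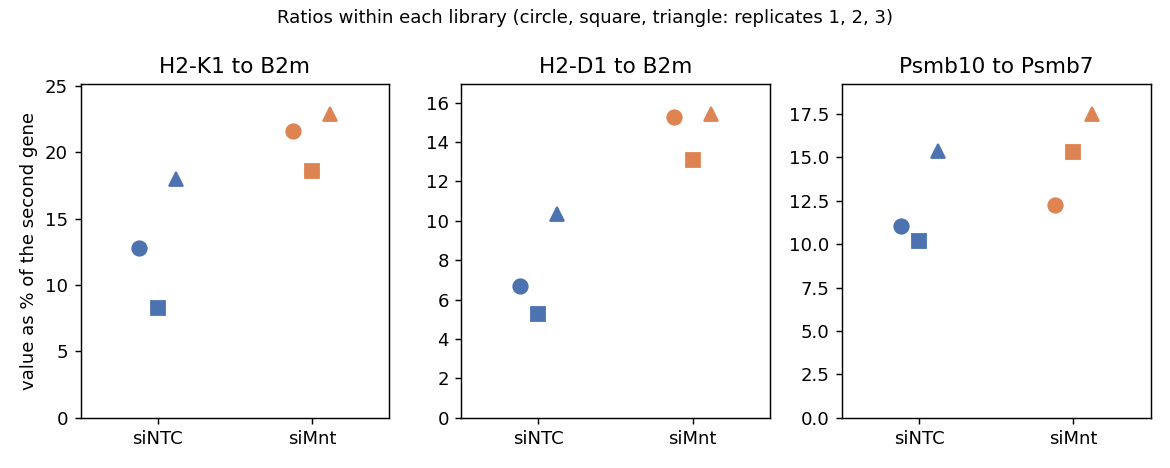
Value of the first gene as a percentage of the second (y axis, linear, from 0) within each library, siNTC in blue and siMnt in orange. Both heavy chain ratios are higher in every siMnt library than in any siNTC library, whereas the groups overlap for Psmb10 to Psmb7.

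Tap1 and Tap2 encode the subunits of the peptide transporter and were both scarce. Tap1 stood at 44.5, 51.0 and 61.4 in siNTC and 61.6, 59.7 and 52.7 in siMnt. The groups overlapped, and the log2 difference of 0.16 ± 0.24 did not pass (adjusted p = 0.742 by limma; 95% interval -0.40 to 0.71). Tap2 stood at 99.6, 68.7 and 169 in siNTC and 73.5, 83.5 and 94.4 in siMnt. siNTC replicate 3 held the most Tap2 of all libraries. The log2 difference was -0.33 ± 0.33 (adjusted p = 0.585 by limma; 95% interval -1.09 to 0.43). Leaving out siNTC replicate 3 gave 0.01. Within replicate numbers 1, 2 and 3 the difference in Tap1 was 0.46, 0.22 and -0.22 and that in Tap2 was -0.43, 0.28 and -0.84, so neither gene kept 1 direction.

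**Figure D3:**
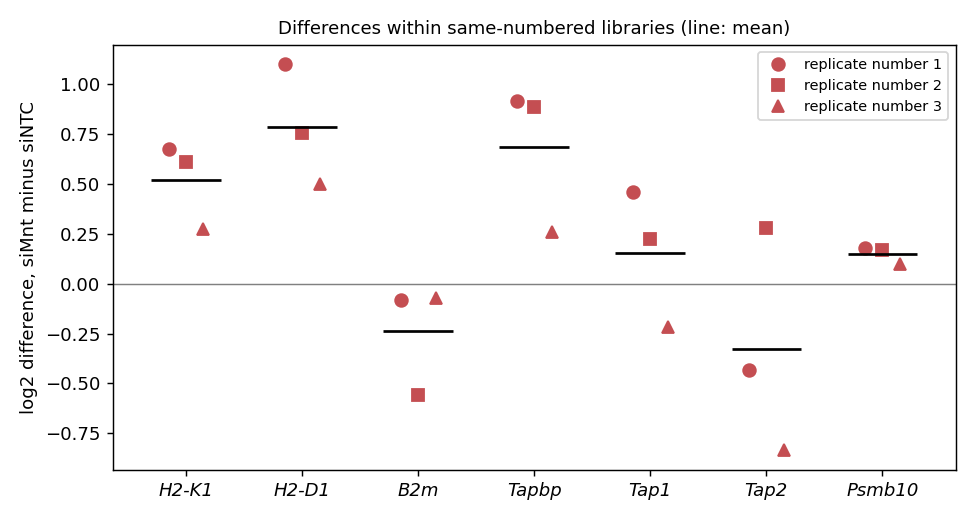
Log2 difference (siMnt minus siNTC, value + 1) between same-numbered libraries for the 7 tested members, 1 symbol per replicate number and a line at the mean. H2-K1, H2-D1, Tapbp and Psmb10 are above 0 in all 3 numbers, B2m is below 0 in all 3, and Tap1 and Tap2 lie on both sides.

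Psmb10, an inducible catalytic subunit, was at 457.7, 574.9 and 600.8 in siNTC and 517.9, 646.7 and 643.3 in siMnt. Each siMnt library was slightly above the siNTC library of the same number, by 0.18, 0.17 and 0.10 on the log2 scale, while the groups overlapped. Its log2 difference was 0.15 ± 0.16 (adjusted p = 0.629 by limma; 0.424 with the replicate number as a block). Psmb9 was at the edge of detection, with 3, 0 and 4 reads in siNTC and 2, 2 and 5 reads in siMnt, and was left out of the test for its low mean. The upstream windows of Psmb9 and Tap1 overlap on opposite strands of chromosome 17, and both genes were scarce. No fold is given for Psmb9, since such counts cannot show a difference at this depth.

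The constitutive counterparts were abundant. Psmb5 was at 1491 ± 370.1 and 1269.9 ± 97.8, Psmb6 at 3823 ± 777 and 3256 ± 207, and Psmb7 at 4565 ± 931 and 4040.1 ± 316. Within a library, the log2 ratio of Psmb10 to Psmb7, the subunit it replaces, was -3.06 ± 0.31 in siNTC and -2.75 ± 0.26 in siMnt (n = 3 each), a difference of 0.31. An exact two-sided permutation test gave p = 0.3 (0.6 after Benjamini-Hochberg adjustment over 2 ratios), and 0.1 is the smallest p that 3 against 3 libraries allow. The other ratio, Psmb9 to Psmb6, rests on 0 to 5 Psmb9 reads a library and is not given. Ratios use log2 of value + 1. The ratio for Psmb8 and Psmb5 was not analysed here.

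Per kilobase of the longest coding transcript (GENCODE M21), the mean level in siNTC fell from B2m (5412 normalised read counts per kilobase) through Tapbp (1013), Psmb10 (415), H2-K1 (346), H2-D1 (153), Tap2 (32.7) and Tap1 (17.7) to Psmb9 (1.28). Most neighbours in this order were apart in all 6 libraries. Psmb10, with single libraries from 349 to 493, and H2-K1, from 315 to 566, were not separated. Tap2, from 19.95 to 49.2, and Tap1, from 15.1 to 20.9, overlapped too. Psmb6 and Psmb7, at 4791 and 3936 per kilobase in siNTC, were far above their inducible counterparts. In siMnt the means of H2-K1 and H2-D1 were 497 and 266.5 per kilobase, and B2m was at 4486.

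Partner genes of the pathway were listed in 4 groups by role, with 70 genes in all, of which 65 were in the table and 59 were tested. By limma 0 of 59 were called, with 12 at an unadjusted p under 0.05, which held for 23.4% of all tested genes. The calls by edgeR and DESeq2 numbered 0 and 3, all 3 higher, against 2.29% and 6.71% of all genes. None of these shares is above the background. Blocked on the replicate number, 3 were called higher and 1 lower, against 9.33% and 6.56% of all genes, so that this share is no higher than the background. The 3 higher were Fcgrt, H2-K2 and Stat3, and the lower gene was Cd1d1, named after its values were seen.

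**Figure D4:**
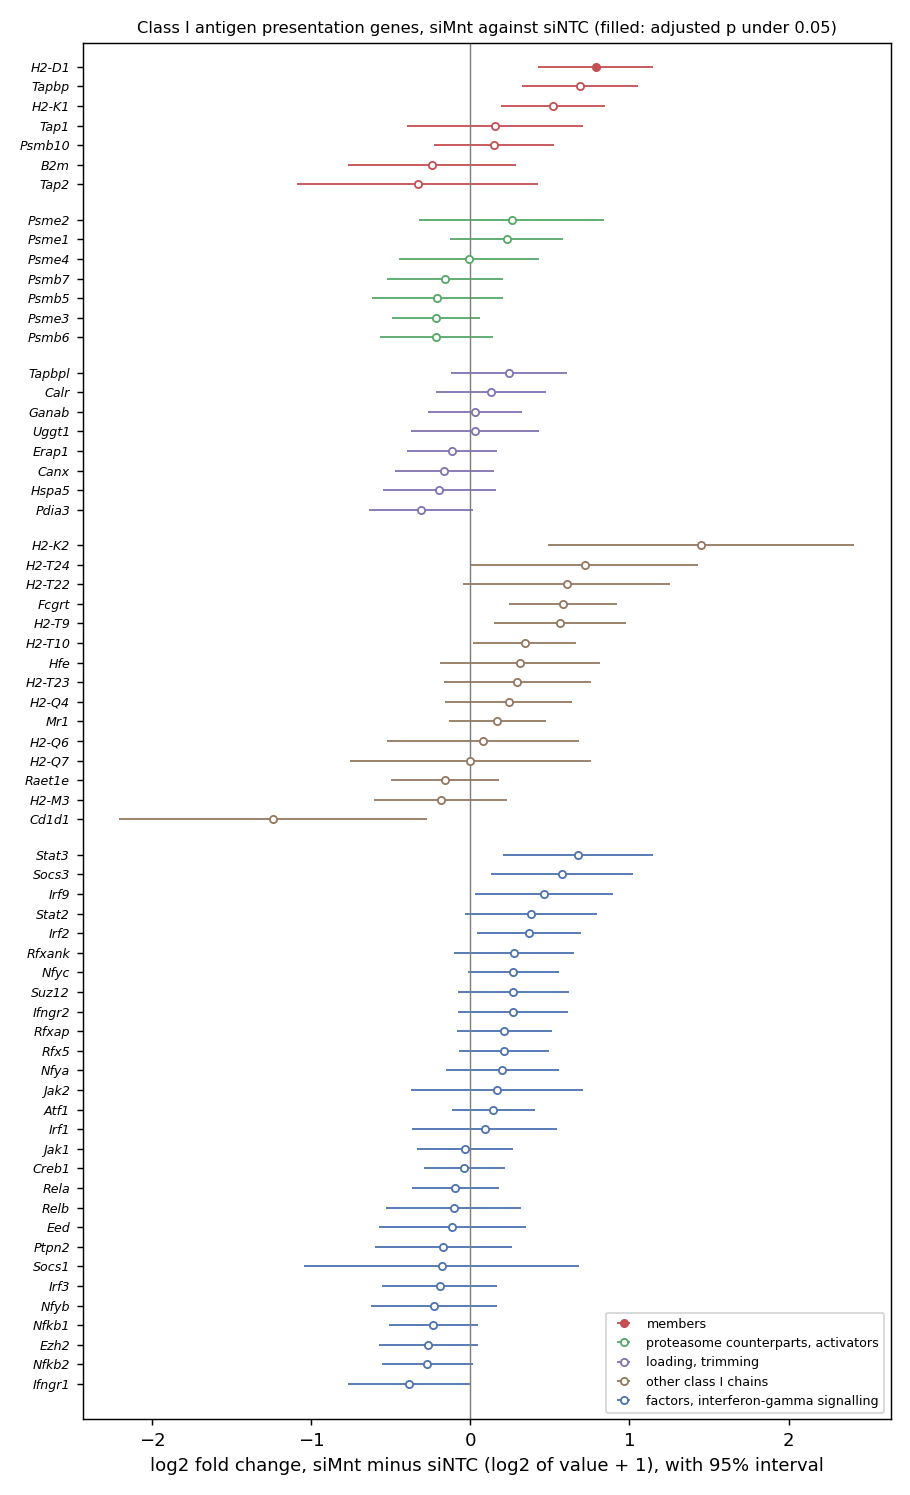
Log2 fold change (siMnt minus siNTC, x axis, log2 of value + 1) with 95% interval for the 7 tested members and the tested partner genes reported here, coloured by role and filled where the adjusted p was under 0.05. H2-D1 is the filled point, and most partner intervals include 0.

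Other class I and class I-like chains had 15 tested genes of 25 listed, with a median log2 fold change of 0.29 and 11 above 0. In 6 of the 15 all siMnt libraries lay above all siNTC libraries, and in 2 all lay below, against 15.6% and 15.9% of all tested genes. Fcgrt, which encodes the B2m-associated receptor that carries IgG and albumin, was at 253.3, 273.6 and 304.9 in siNTC and 400.1, 396.2 and 448.5 in siMnt (log2 difference 0.58 ± 0.15; adjusted p = 0.0684 by limma; 0.0253 when blocked on the replicate number). H2-K2, a close relative of H2-K1, was near the lower limit, at 6.61 ± 2.01 and 19.6 ± 4.84 (0.0894; 0.0499 with the block). The better expressed H2-T10, a nonclassical chain, was at 412.2 ± 39.8 and 521.2 ± 28.6 (adjusted p = 0.194 by limma), and Mr1, which presents vitamin B metabolites to T cells, was at 435.7 ± 19.0 and 490.7 ± 33.6 (0.477). Cd1d1, which presents lipids, went the other way, at 69.9, 91.9 and 96.9 in siNTC and 43.2, 17.9 and 57.6 in siMnt (adjusted p = 0.13 by limma; block 0.0431). For 5 listed chains the mean was under 10 and no test was made. Many of these chains share sequence: of the 50-base stretches of H2-T22, 44.7% occur in other genes.

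Chaperones and trimming enzymes that serve class I loading did not pass in either direction (0 of 8; 0 with an unadjusted p under 0.05; edgeR and DESeq2 0 each), with a median log2 fold change of -0.04. Pdia3, the disulphide isomerase that works with tapasin, was at 24050 ± 2743 and 19360.0 ± 1549 (log2 difference -0.31 ± 0.14; adjusted p = 0.237 by limma). All siMnt libraries were below all siNTC libraries for this gene, by a small margin (21093 against 21124 at the nearest). The lectin chaperone Canx was at 20496 ± 1704 and 18313 ± 1707, and the tapasin-related Tapbpl was at 451.0 ± 61.0 and 532.8 ± 55.1 (adjusted p = 0.391).

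Of the constitutive subunits and proteasome activators 0 of 7 were called by limma, edgeR or DESeq2, and 0 had an unadjusted p under 0.05. The median log2 fold change was -0.16. The activator subunit Psme1, which interferon-gamma induces, was at 1074.5 ± 181 and 1250.3 ± 96.6 (log2 difference 0.23 ± 0.15; adjusted p = 0.409 by limma). Psme3, an alternative activator of the nucleus, was at 4419 ± 479 and 3801 ± 217 (-0.21 ± 0.12; adjusted p = 0.324). Psme4 was at 5940 ± 1413 and 5797 ± 568, with a difference near 0.

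Transcription factors and interferon-gamma signalling genes had 29 tested members of 30, with a median log2 fold change of 0.15. By limma and edgeR 0 were called, 6 had an unadjusted p under 0.05 by limma, and DESeq2 called 2 higher, against 23.4% and 6.71% of all genes, so both counts are near the background. In 8 of the 29 all siMnt libraries were above all siNTC libraries, and in 1 all were below, against 15.6% and 15.9% of all genes. Stat3, a signal transducer of interleukin-6-type cytokines, was at 3599, 3011 and 5465 in siNTC and 6335, 5946 and 6417 in siMnt (log2 difference 0.68 ± 0.21; adjusted p = 0.101 by limma; 0.0204 with the replicate number as a block; 0.00353 without siNTC replicate 3). Its feedback inhibitor Socs3 was at 1308 ± 205 and 1970 ± 422 (adjusted p = 0.127 by limma; block 0.057). Jak1 and Jak2, the kinases of the interferon-gamma receptor, were at 5699 ± 674 and 5564 ± 488 and at 51904 ± 14944.5 and 56549 ± 2708, with groups that overlapped.

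Irf1 and Irf2, interferon regulatory factors known to act on class I promoters, were named after their values were seen. Irf1 was at 3324 ± 870.4 and 3454.5 ± 254 with overlapping groups (adjusted p = 0.829). Irf2 was at 627.0 ± 12.2 and 816.8 ± 118.5 without overlap (adjusted p = 0.169 by limma). Irf9 and Irf3 of the same list were named in the same way. Irf9 was at 370.4 ± 74.7 and 506.6 ± 60.7, also higher without overlap (adjusted p = 0.190 by limma). Irf3 had a lower mean in siMnt, at 940.1 ± 167.9 and 815.8 ± 61.4, with overlapping groups (0.497). The NF-kappaB genes Nfkb1, Nfkb2, Rela and Relb, named likewise, had lower means in siMnt with overlapping groups (adjusted p = 0.294, 0.240, 0.675 and 0.778 by limma). Of the interferon-gamma receptor genes, also named likewise, Ifngr1 was lower without overlap, at 6306 ± 1427 and 4759 ± 306 (0.212). Ifngr2 had a higher mean, at 3961 ± 789 and 4714 ± 112, with overlapping groups (0.316). The class II transactivator Ciita was near 0 in every library, at 0 to 3.24.

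Markers of other cell types were measured beside these genes. Of 14 listed markers of leukocytes and professional antigen-presenting cells, 6 were in the table, with a summed level of 1075 to 1424 in siNTC and 2111 to 2452 in siMnt. Most of that sum was Csf1r, the receptor of colony stimulating factor 1, which rose from 945 ± 226 to 1975 ± 110.0 (adjusted p = 0.0242 by limma). Itgam also rose, from 5.24, 4.43 and 8.40 to 28.1, 17.9 and 25.7 (adjusted p = 0.0493 by limma). The Csf1r call was lost without siNTC replicate 1 or any 1 of the siMnt libraries, and the Itgam call without any 1 library other than siNTC replicate 3. Itgam also missed the threshold with a pseudocount of 0.5 and with equal medians (adjusted p = 0.0514 and 0.0513 by limma). Ptprc, the defining surface phosphatase of leukocytes, was near 0 in both groups, at 1.29 to 6.65 in siNTC and 2.45 to 3.58 in siMnt. Cd74, the class II invariant chain, was at 99.1 ± 13.3 and 141.1 ± 27.8 (adjusted p = 0.234). Cd68, named after its values were seen, had a lower mean in siMnt, at 190.5 ± 67.8 and 163.7 ± 45.8. Its groups overlapped (adjusted p = 0.765 by limma). Nkg7, named in the same way, was near 0, at 2.93 ± 2.46 and 7.35 ± 1.13, and was left out of the test for its low mean. H2-Aa, H2-Ab1, H2-Eb1, Adgre1, Itgax, Cd3e and Ms4a1 were not analysed here. Of 4 endothelial markers 2 were in the table, summing to 65.2 to 99.6 in siNTC and 41.8 to 49.0 in siMnt. Most of that sum was Cdh5, named after its values were seen, at 80.1 ± 16.4 and 40.4 ± 7.81 without overlap. Its adjusted p was 0.0836 by limma (block 0.0435), and 15.9% of all tested genes were lower without overlap. Pecam1 was near 0, at 4.03 ± 2.40 and 3.95 ± 4.85, and was left out of the test for its low mean. The part of other cells in the heavy chain and tapasin values was not tested.

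All 6 listed mesenchymal markers were lower in every siMnt library than in any siNTC library, with summed levels of 206415 to 346365 in siNTC and 98165 to 144528 in siMnt, and 3 of the 6 passed by limma: Vim, Cdh2 and Zeb2 (log2 fold changes -1.81, -0.74 and -1.29; adjusted p = 0.0226, 0.0439 and 0.0353). Most of each sum was Fn1, named after its values were seen, at 194144 ± 65810 and 89027 ± 19509, which did not pass (adjusted p = 0.0734 by limma). Over all tested genes, 15.9% were lower without overlap and 1.37% were called lower. Of 8 listed epithelial markers 7 were in the table. Their summed level, most of it keratin, overlapped between the groups, at 114764 to 141981 in siNTC and 127029 to 138566 in siMnt. Single epithelial markers differed in direction, and limma called 0 of 7, with 2 at an unadjusted p under 0.05 (edgeR 0 and DESeq2 1 lower). E-cadherin, Cdh1, was at 7543 ± 2429 and 10572 ± 729.6, with overlapping groups (adjusted p = 0.179 by limma; block 0.0474). The tight junction gene Cldn4, named after its values were seen, was at 278.1 ± 203.9 and 82.4 ± 18.3, also with overlapping groups (adjusted p = 0.198 by limma; block 0.0254; DESeq2 0.013). Esrp1, a splicing regulator of epithelial cells named in the same way, was at 17.8 ± 7.61 and 8.55 ± 2.53 without overlap (adjusted p = 0.248 by limma). Ocln and Krt19, also named in this way, had higher means in siMnt, with overlapping groups. Ocln was at 469.6 ± 160.3 and 626.5 ± 52.7 (adjusted p = 0.265 by limma) and Krt19 at 21392 ± 5731 and 26669 ± 3423 (0.356). Blocking on the replicate number called 1 epithelial marker higher and 1 lower, and leaving out siNTC replicate 3 gave 2 higher and 1 lower. Leaving out replicate 1 of siNTC, or replicate 1 or 2 of siMnt, ended the Vim call. Those of Cdh2 and Zeb2 were lost without any 1 library other than siNTC replicate 3. Without a variance trend neither Cdh2 nor Zeb2 passed (adjusted p = 0.073 and 0.0595 by limma), and Cdh2 did not at a gene mean of at least 50 (0.0502). With the replicate number as a block all 6 passed, against 6.56% of all genes called lower. siNTC replicate 3 held the least of each of these 6 of the controls, and it was also the control with the highest H2-K1, H2-D1 and Tapbp. Whether the class I values follow the mesenchymal state was not tested.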

How the data were processed

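RNA from 6 NMuMG libraries was sequenced. Trizol extraction and standard Illumina library preparation are recorded per the labels' protocols, without the strand setting. The submitters' processing notes name TopHat2 2.1.0, DESeq 3.5, DESeq2 and mm9. The authors deposited 1 table of normalised values, a signal that is never negative. Dividing by the value of 1 read returned whole reads for 99.73% of values above 0, within 0.05 read. Counting tool, annotation and gene filter: not given in the sources used here.

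Values were taken as log2(value + 1), which understates changes of low genes. The 12568 genes with a mean of at least 10 were tested with limma 3.58.1 (R 4.3.3, empirical Bayes with trend, all 6 libraries), with Benjamini-Hochberg adjustment over all of them and a threshold of 0.05. edgeR 4.0.16 and DESeq2 1.42.0 were run on recovered reads, edgeR calling 445 genes. Groups and replicate numbers come from the titles. Whether replicates were separate cultures is not in the labels. The p-values reflect the spread among these libraries, which may be technical. The labels do not say whether same-numbered libraries were prepared together. In these data same-numbered libraries deviated together (correlation of deviations from group means 0.28, 0.50 and 0.35 for numbers 1, 2 and 3). Support for the block thus comes from the values it is applied to. Values with the replicate number as a block are given where they change a call. Transcript lengths are from GENCODE M21. Members and lists were chosen with earlier results of these data known. Named genes are the members, Mnt, Psmb5 to Psmb7, called partners or, in a list without a call, its 2 most expressed genes and the 2 with the smallest adjusted p, called markers, and Cdh1, Krt8, Krt18, Ptprc and Cd74. Tables were made with Python 3.11.15 and pandas 2.3.3. The fits were also run on simulated counts without an outlying library or a replicate effect. That run does not show how the fits behave on these libraries. Alternatives were other pseudocounts, filters, scaling, variance model and tests, the block, leaving out each library and, added after seeing the data, a correction for GC content and length. Single genes of the lists that are not named or drawn are not reported here.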

Additional observations from a re-analysis of the deposited data

How the results depend on the processing

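With 494 genes called, the count was 322 at a gene mean of at least 50, 306 without a variance trend, 1998 with the replicate number as a block, 1457 by DESeq2 and 1012 after the correction for GC content and transcript length, which was chosen after seeing the data. Higher genes were 322 of the 494 and 602 of the 1012. Leaving out single libraries gave 0 to 2024 genes: 0 without siNTC replicate 1 or siMnt replicate 1 or 2, 125 without siMnt replicate 3, 220 without siNTC replicate 2 and 2024 without siNTC replicate 3. Members called were 1, and 0 without a variance trend (H2-D1 adjusted p = 0.0505 by limma), 3 with the replicate number as a block, 3 by DESeq2, 2 after the GC and length correction and 0 to 3 without 1 library, the 3 being without siNTC replicate 3 and the others giving 0. Partners called were 0, and 1 without a variance trend, 4 with the block, 3 by DESeq2, 1 after the GC and length correction and 0 to 4 without 1 library, the 4 being without siNTC replicate 3. The members' median of 0.16 ranged from 0.05 to 0.28 without 1 library, and the difference in the Psmb10 to Psmb7 ratio from 0.19 to 0.49, both keeping their sign. Equal medians moved the median of all genes by 0.01. Small differences changed sign: Psme4 reached 0.0034 with equal medians and -0.22 to 0.11 without 1 library, Tap2 -0.63 to 0.011, Psmb7 -0.26 to 0.0004, Jak2 -0.092 to 0.34, Jak1 -0.11 to 0.058, Krt8 -0.20 to 0.023 and Krt18 -0.11 to 0.29. Under the alternatives run, H2-K1, H2-D1 and Tapbp kept their direction. Causes of these shifts were not tested. Psmb9, with 0 to 5 reads a library, is too low to compare.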
